A study of Mus musculus with 8 samples.

Results

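Fatty acid oxidation genes and textbook targets of the peroxisome proliferator-activated receptors (PPARs) were followed in mouse macrophages with and without a load of modified lipoprotein. The set was a list of 37 genes, matched to the array by symbol. A probe set with 1 gene symbol measured 36 of them, out of 19938 genes tested in all, and the uncoupling protein gene Ucp2 was not analysed here. By textbook location of the product, 22 measured members are mitochondrial, 10 are peroxisomal, 3 (Crat, Eci2 and Acad11) are given to both organelles and 1 (Angptl4) is secreted. The cells were thioglycollate-elicited peritoneal macrophages from C57BL/6J mice, taken 5 days after injection of the irritant broth and cultured in serum-containing medium. Unloaded cultures (4 arrays) received no agent, and loaded cultures (4 arrays) received acetylated low-density lipoprotein (acLDL), which macrophages take up through scavenger receptors. The sample protocols give 20 µg/mL acLDL for 3 days and the series design gives 50 µg/mL for 2 days, so dose and time are not settled. The labels give no genotype beyond the strain, and neither the sex nor the age of the mice. The series design calls the replicates independent but ties no mouse to a culture, so p-values measure the spread between these arrays.

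In mitochondria, long-chain acids enter through the carnitine shuttle and are shortened in a repeating spiral of dehydrogenation, hydration, a second dehydrogenation and thiolysis. The first dehydrogenases pass their electrons to the electron transfer flavoprotein and on to ubiquinone. Peroxisomes run a related spiral on very long-chain and branched acids with an oxidase that makes hydrogen peroxide, and export shortened acids as carnitine esters. PPARs are fatty acid-sensing nuclear receptors that pair with RXR receptors on repeated half-sites and are known to switch on many of these genes in liver, muscle and macrophages.

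All values below are deposited log2 expression values, and a level below 6.13, the 95th percentile of 1015 olfactory receptor genes, is called dim. Of the members, 34 lay above this level by their mean over 8 arrays, and Pdk4 and Ehhadh did not. Pairs of arrays from one group correlated at 0.994 to 0.997 over all genes, and pairs from different groups at 0.989 to 0.991. Unloaded arrays 1 and 4 stood apart from unloaded arrays 2 and 3 on the second principal component (18.0% of variance). The mean of arrays 1 and 4 was above that of arrays 2 and 3 in 31 of 36 members (86.1%), against 65.0% of the 11609 genes above the olfactory level. Macrophage markers were present, with 9 of 9 measured above the olfactory level, and 5 of them rose and 1 fell. Their summed linear level was 21055 to 22568 in unloaded and 22955 to 23669.7 in acLDL arrays. Fibroblast and mesothelial markers were above the olfactory level in 6 of 9 cases and 2 of them fell, with sums of 4588 to 5637 in unloaded and 4139 to 4604 in acLDL arrays. Adipocyte markers summed to 389 to 435 in unloaded and 388 to 417 in acLDL arrays, with Plin1, Retn and Lipe of 6 measured above the olfactory level and 1 lower. The other lists had 0 or 1 member above that level (Cd3e for T cells, S100a8 for neutrophils, Siglecf for eosinophils, Tpsb2 for mast cells, Kdr for endothelium). Neutrophil markers summed to 342 to 356 in unloaded and 303 to 326 in acLDL arrays (3 of 8 fell), eosinophil markers to 374 to 413 in unloaded and 301 to 329 in acLDL arrays (1 of 5 fell), mast cell markers to 259.8 to 291 in unloaded and 243 to 258 in acLDL arrays (1 of 6 fell) and endothelial markers to 300.3 to 329.8 in unloaded and 269 to 289.8 in acLDL arrays (1 of 5 fell). T cell and B cell sums overlapped between the groups, and 0 of 9 of their markers passed. Markers said to rise or fall passed a limma adjusted p of 0.05, as did 12.9% (higher) and 10.5% (lower) of all genes. The part of these markers in the results below was not tested. The median over the olfactory receptor genes was itself lower with acLDL, at 4.37 to 4.41 against 4.43 to 4.52 in unloaded arrays. Lists made mostly of dim genes may share this shift of background, and its part in their sums was not tested. In bulk samples, fewer cells of a type and less RNA per cell cannot be told apart either.

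Oxidation genes moved in both directions with acLDL. By limma at an adjusted p of 0.05, 7 of 36 members were called higher, 9 were called lower and 20 were not called. Of all 19938 genes, 23.3% passed (12.9% higher and 10.5% lower), and of the genes above the olfactory level 33.6% passed (19.7% higher and 14.0% lower). The members' shares were 44.4% in all, 19.4% higher and 25.0% lower. Sizes were small. The median log2 difference was 0.09 over the members and 0.03 over the genes above the olfactory level, the members ran from -0.62 (Etfa) to 0.57 (Acads), and 1 member passed with a change of at least 1.5-fold, against 2.03% of all genes.

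**Figure D1:**
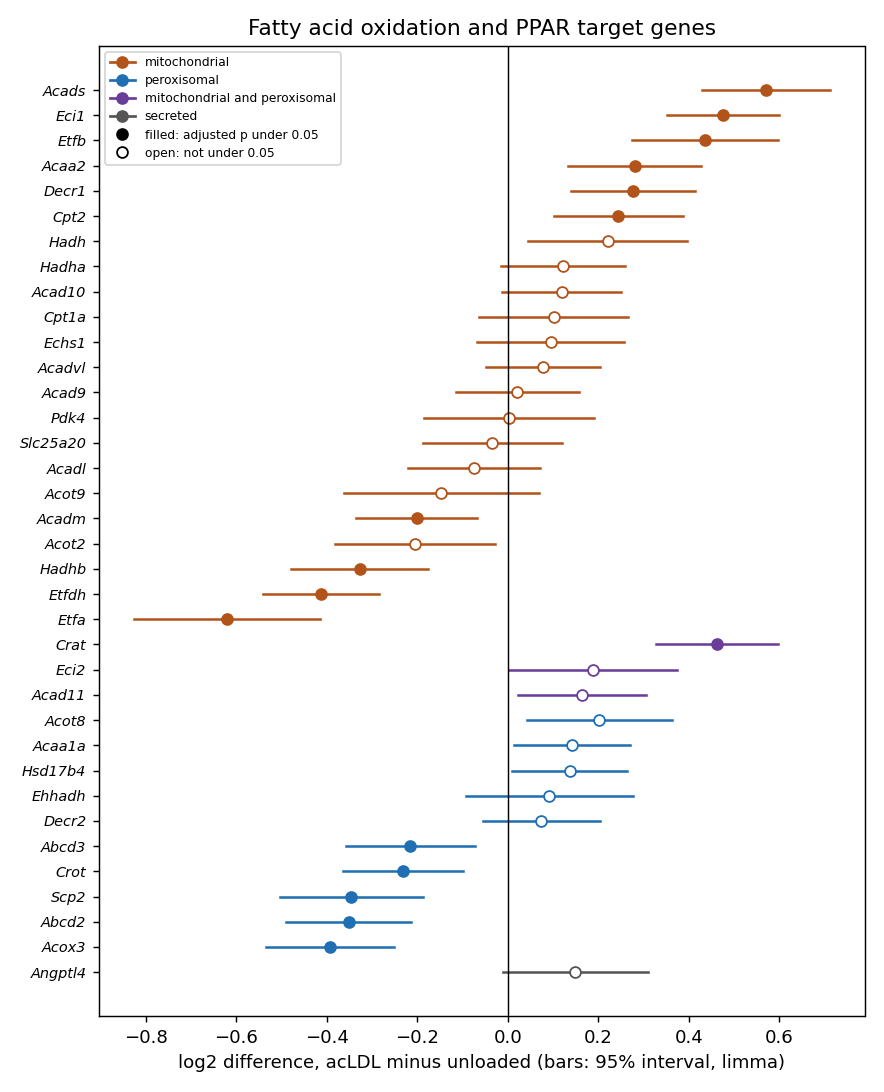
Log2 difference, acLDL minus unloaded, for 36 genes ordered by compartment and size, with 95% intervals from limma (4 arrays a group). Filled points passed an adjusted p of 0.05: 6 mitochondrial genes and Crat lie right of 0, and 4 mitochondrial and 5 peroxisomal genes lie left of it.

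The compartments had different counts. Among 22 mitochondrial members limma called 6 higher and 4 lower and left 12 uncalled, with a median log2 difference of 0.09. Leaving out unloaded array 3 brought this median to 0.05, leaving out arrays 2 and 3 of that group brought it to 0.02, and the array medians had a within-group SD of 0.066. Among 10 peroxisomal members limma called 0 higher and 5 lower and left 5 uncalled. Their differences lay above 0 in 5 and below 0 in 5, with a median of -0.07. That median ran from -0.22 to -0.0060 in the other settings tried, and its array medians had a within-group SD of 0.054. Of all genes 12.9% were called higher and 10.5% lower, and of those above the olfactory level 19.7% and 14.0%. At an unadjusted p under 0.05, 3 peroxisomal members (Acot8, Acaa1a and Hsd17b4) were higher. So were 3659 of all 19938 genes and 3081 of the 11609 genes above the olfactory level. Fits with a trended robust prior or without moderation gave 1 and 2 peroxisomal members past the adjusted threshold as higher. Without unloaded array 3 the count was also 1 (Acot8). The 3 members given to both organelles stand outside these counts, with 1 called higher (Crat) and all 3 above 0. The difference between the compartments was not tested. The 4 acLDL arrays lay entirely above or below the 4 unloaded arrays in 19 of 36 members, 10 higher and 9 lower, against 25.6% of all genes and 36.8% of those above the olfactory level.

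**Figure D2:**
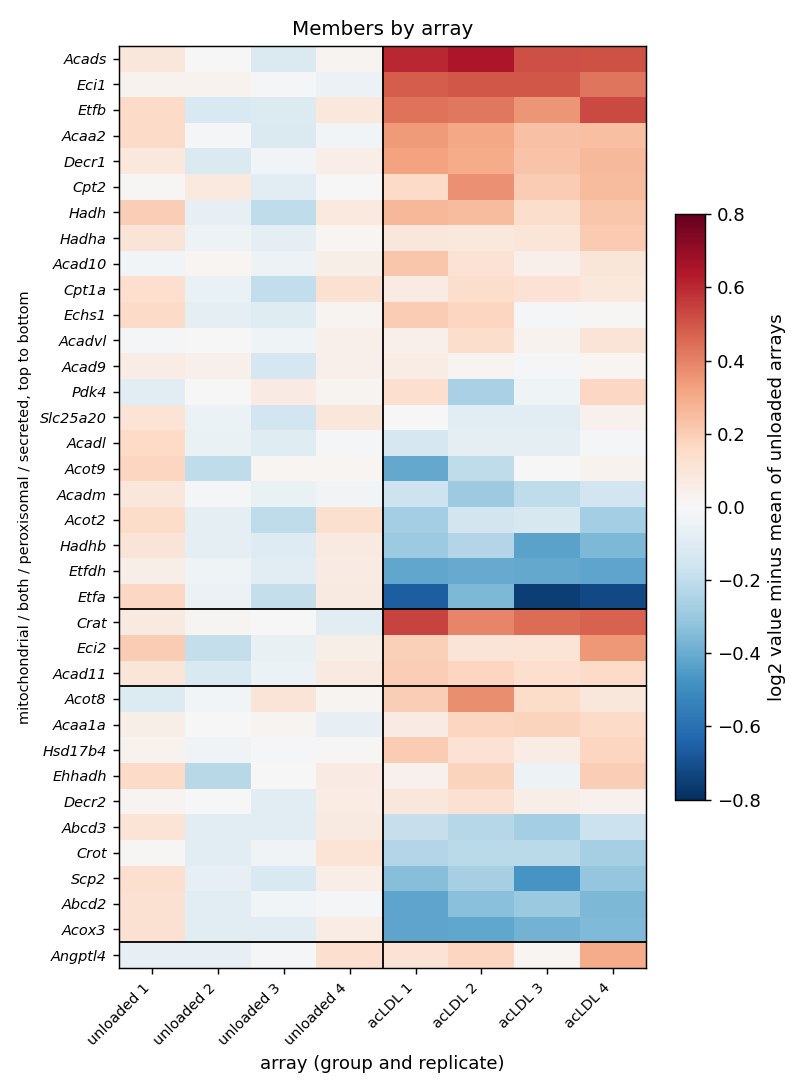
Log2 value of each member in each of 8 arrays, minus the mean of the 4 unloaded arrays, with red for higher and blue for lower. Lines separate mitochondrial, doubly located, peroxisomal and secreted products. Etfa fell and Acads rose in each acLDL array.

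Electron transfer flavoprotein genes changed in opposite directions. The flavoprotein is a dimer of the products of Etfa and Etfb, and Etfdh encodes the dehydrogenase that passes its electrons to ubiquinone. Etfa read 9.91, 9.70, 9.56 and 9.82 in unloaded arrays 1 to 4 and 9.09, 9.39, 9.0 and 9.03 in acLDL arrays 1 to 4. It was 1.54-fold lower (log2 difference -0.62 ± 0.10 SE, limma adjusted p = 0.000379), the largest change among the members. The groups did not overlap, and acLDL array 2 was the highest of the loaded arrays. Etfb read 8.77, 8.50, 8.51 and 8.70 in unloaded and 9.06, 9.05, 8.98 and 9.15 in acLDL arrays, in the same order of replicates. It was 1.35-fold higher (0.44 ± 0.08, adjusted p = 0.000871 in limma), again without overlap. Etfdh read 9.18, 9.10, 9.05 and 9.20 in unloaded and 8.72, 8.73, 8.72 and 8.71 in acLDL arrays. It was 1.33-fold lower (-0.41 ± 0.06, limma adjusted p = 0.000229), and its loaded arrays lay close together.

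Within each array, the log2 value of Etfb minus that of Etfa was -1.13 ± 0.07 in the unloaded arrays and -0.07 ± 0.20 in those with acLDL (SD, n = 4). This difference changed by 1.06, given without a test, because subunits that each separate the groups in opposite directions must separate them in their difference too. It ran from -1.21 to -1.04 in unloaded and from -0.34 to 0.12 in loaded arrays. Because probe sets differ in brightness, only the change of this difference carries information, and not its level.

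The windows around the starts of both dimer genes are shown because their transcripts moved apart. They come from RefSeq on GRCm38.p6, run from 250 bases before to 50 bases after the start, and read 5′ to 3′ on the gene's strand. Capitals mark the best match to a PPAR-type repeat, AGGTCANAGGTCA, allowing 2 mismatches outside N on either strand.
Etfa, chr9:55512194-55512493, minus strand: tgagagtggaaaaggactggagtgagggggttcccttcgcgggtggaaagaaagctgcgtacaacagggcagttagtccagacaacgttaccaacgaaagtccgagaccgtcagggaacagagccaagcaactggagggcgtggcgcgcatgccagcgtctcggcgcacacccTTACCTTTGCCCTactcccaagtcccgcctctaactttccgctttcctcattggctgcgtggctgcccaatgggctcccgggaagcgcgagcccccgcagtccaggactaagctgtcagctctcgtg
Etfb, chr7:43443822-43444121, plus strand: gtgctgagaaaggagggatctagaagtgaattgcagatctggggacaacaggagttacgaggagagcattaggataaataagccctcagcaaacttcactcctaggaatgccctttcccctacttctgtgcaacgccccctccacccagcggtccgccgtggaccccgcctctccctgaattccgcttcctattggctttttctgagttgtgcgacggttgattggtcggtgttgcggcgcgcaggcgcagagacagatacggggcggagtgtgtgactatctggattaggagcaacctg
The Etfa window held 1 such match, on the reverse strand, beginning 77 bases before the start, and the Etfb window held 0. Windows were found for 29 of the 36 measured members, with 30 windows in all because Abcd3 has 2. With 2 mismatches allowed, 3 of the 30 windows (those of Etfa, Echs1 and Slc25a20) held a match, against 3.86% of 32851 RefSeq windows. With 1 mismatch or none, 0 of 30 did, against 0.554% and 0.0396% of all windows. Etfa fell, and Echs1 and Slc25a20 did not pass. A match describes letters, and PPAR sites may lie outside these windows.

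The mitochondrial trifunctional protein, which carries out the later steps on long-chain acids, is built from the products of Hadha and Hadhb. Hadhb, the thiolase subunit, read 9.61, 9.44, 9.40 and 9.58 in unloaded and 9.22, 9.27, 9.08 and 9.15 in acLDL arrays. It was 1.26-fold lower (-0.33 ± 0.07 SE on the log2 scale, limma adjusted p = 0.00409), with no overlap. A second probe set of Hadhb gave -0.35 ± 0.07 (log2, SE; limma adjusted p = 0.00391 over all annotated probe sets) and followed the first over the 8 arrays (r = 0.994, a description of 2 probe sets of 1 gene). Hadha, the hydratase and dehydrogenase subunit, read 9.78, 9.64, 9.60 and 9.69 in unloaded and 9.77, 9.76, 9.77 and 9.89 in acLDL arrays. It did not pass (0.12, 95% interval -0.02 to 0.26, limma adjusted p = 0.200), and its groups overlapped, acLDL array 4 standing above the rest.

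Within each array, Hadha minus Hadhb was 0.17 ± 0.04 in the unloaded arrays and 0.62 ± 0.12 in those with acLDL (log2 units, SD, n = 4). It changed by 0.45, given without a test, because Hadhb alone already separated the groups and a test on the same arrays would largely repeat its call. The unloaded arrays ran from 0.12 to 0.20 and the loaded arrays from 0.49 to 0.74. The genes lie head to head on chromosome 5, Hadha on the minus and Hadhb on the plus strand. Their 300-base RefSeq windows share 228 bases. The Hadhb window is shown, with the shared bases in capitals, because these neighbours moved unequally.
Hadhb, chr5:30155003-30155302 (GRCm38.p6), plus strand: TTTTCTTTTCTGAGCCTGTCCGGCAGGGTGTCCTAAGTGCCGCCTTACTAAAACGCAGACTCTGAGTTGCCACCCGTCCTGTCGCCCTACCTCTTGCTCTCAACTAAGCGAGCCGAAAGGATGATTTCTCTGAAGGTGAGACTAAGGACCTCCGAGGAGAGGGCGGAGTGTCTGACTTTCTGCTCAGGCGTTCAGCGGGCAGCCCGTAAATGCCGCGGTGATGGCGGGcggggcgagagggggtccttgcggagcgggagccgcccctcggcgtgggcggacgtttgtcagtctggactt
This window held 0 matches to the repeat with up to 2 mismatches.

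**Figure D3:**
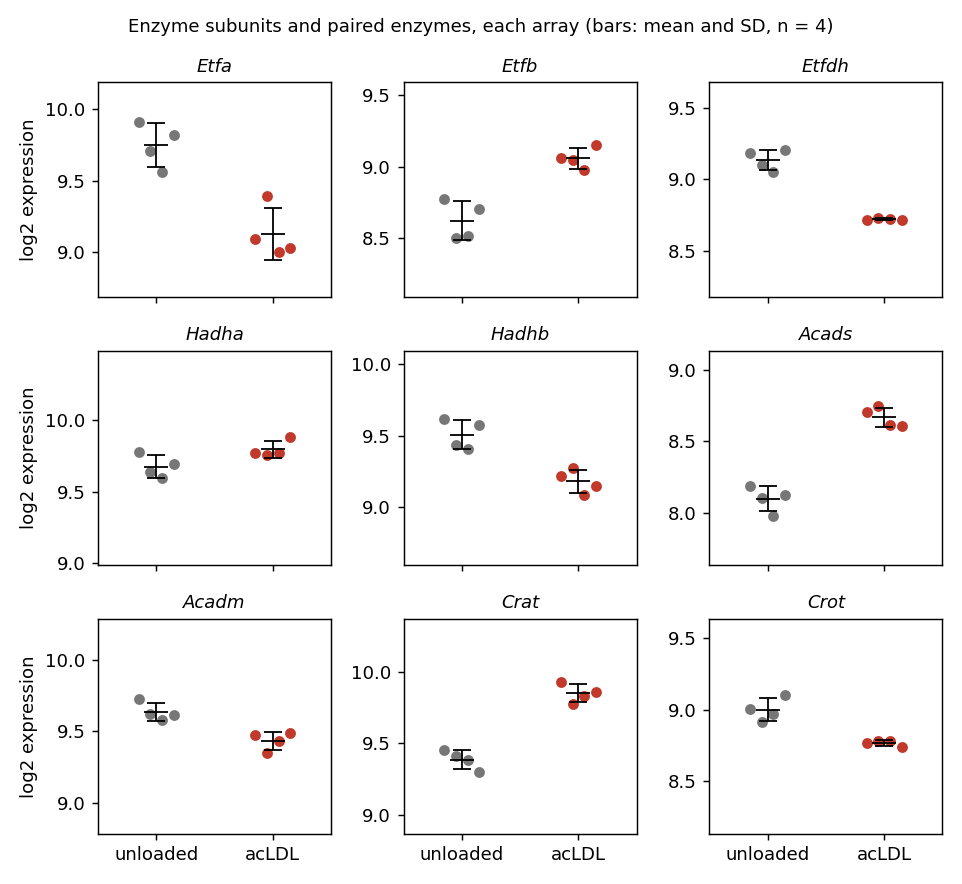
Log2 expression in each array (points) with mean and SD (bars, n = 4 a group) for subunits and related enzymes, each panel spanning 1.5 log2 units. Etfa, Etfdh, Hadhb, Acadm and Crot sit lower with acLDL, Etfb, Acads and Crat sit higher, and the groups overlap in Hadha.

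Acyl-CoA dehydrogenases, which open the spiral and differ in the chain length they take, passed in 2 of 7 cases (28.6%, against 23.3% of all genes and 33.6% of those above the olfactory level). Acads, for short chains, read 8.19, 8.11, 7.98 and 8.12 in unloaded and 8.70, 8.75, 8.62 and 8.61 in acLDL arrays. It rose 1.48-fold (0.57 ± 0.07 SE on the log2 scale, limma adjusted p = 4.19e-05), the largest rise among the members, with a wide gap between the groups. Acadm, for medium chains, read 9.73, 9.62, 9.58 and 9.61 in unloaded and 9.47, 9.35, 9.43 and 9.49 in acLDL arrays. It fell 1.15-fold (-0.20 ± 0.06, limma adjusted p = 0.0312) without overlap of the groups. The Acadm call was lost without any one of unloaded arrays 1, 2 and 4 (adjusted p = 0.0710, 0.0547 and 0.0534) or of acLDL arrays 1, 2 and 3 (0.0514, 0.100 and 0.0650). It was also lost without unloaded arrays 1 and 4 together, where the difference was -0.17 (limma adjusted p = 0.105). Long-chain Acadl differed by -0.08 (95% interval -0.22 to 0.07) and very long-chain Acadvl by 0.08 (-0.05 to 0.20). Acad9, better known for assembling respiratory complex I, differed by 0.02 (-0.11 to 0.16, with unloaded array 3 below the rest), Acad10 by 0.12 (-0.01 to 0.25) and Acad11 by 0.16 (0.02 to 0.30, limma adjusted p = 0.0905). The arrays of Acad11 did not overlap between groups, although it did not pass.

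The rest of the mitochondrial spiral moved upwards in part. Acaa2, the thiolase of the matrix, read 8.94, 8.77, 8.67 and 8.76 in unloaded and 9.12, 9.09, 9.02 and 9.02 in acLDL arrays. It rose 1.21-fold (0.28 ± 0.07 SE, limma adjusted p = 0.00901), and its groups lay apart, unloaded array 1 being the nearest to the loaded arrays. Hadh, the dehydrogenase for shorter chains, differed by 0.22 (95% interval 0.05 to 0.40, limma adjusted p = 0.0678) and passed without unloaded array 1 (0.0161). It also passed in 8 of the other settings tried, among them removal of the span trend (0.0421). Echs1, the short-chain hydratase, differed by 0.09 (-0.07 to 0.26).

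Enzymes that prepare unsaturated acids for the spiral rose in mitochondria. Eci1, an enoyl-CoA isomerase, read 7.14, 7.14, 7.11 and 7.07 in unloaded and 7.60, 7.61, 7.61 and 7.54 in acLDL arrays. It was 1.39-fold higher (0.48 ± 0.06 SE, limma adjusted p = 5.59e-05), with no overlap, acLDL array 4 being the lowest of the loaded arrays. Decr1, a dienoyl-CoA reductase, read 7.96, 7.76, 7.86 and 7.93 in unloaded and 8.20, 8.18, 8.11 and 8.13 in acLDL arrays and was 1.21-fold higher (0.28 ± 0.06, limma adjusted p = 0.00625), also without overlap. Their peroxisomal or doubly located relatives did not pass. Decr2 differed by 0.07 (95% interval -0.06 to 0.20), and Eci2 by 0.19 (0.00 to 0.37, limma adjusted p = 0.141, 0.0391 without unloaded array 1). A missed threshold does not show that the relatives stayed level.

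In the carnitine shuttle, the entry enzyme and the carrier did not pass while the inner enzyme rose. Cpt1a, the regulated outer-membrane acyltransferase and a known PPAR target, read 9.68, 9.49, 9.35 and 9.67 in unloaded and 9.61, 9.69, 9.66 and 9.63 in acLDL arrays. Its groups overlapped, with unloaded arrays 1 and 4 as high as the loaded arrays. It differed by 0.10 (95% interval -0.06 to 0.27, limma adjusted p = 0.384), and by 0.23 without unloaded arrays 1 and 4 (0.0377). Slc25a20, the carnitine-acylcarnitine carrier, differed by -0.03 (-0.19 to 0.12). Cpt2, which releases the acyl group inside, read 7.46, 7.53, 7.37 and 7.45 in unloaded and 7.61, 7.82, 7.66 and 7.71 in acLDL arrays, without overlap. It rose 1.18-fold (0.24 ± 0.07 SE, limma adjusted p = 0.0163, 0.0595 without acLDL array 2).

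The carnitine acyltransferases for shorter acids parted. Crat, which makes acetylcarnitine, read 9.46, 9.41, 9.38 and 9.30 in unloaded and 9.93, 9.78, 9.83 and 9.86 in acLDL arrays. It was 1.38-fold higher (0.46 ± 0.06 SE, limma adjusted p = 0.000141), and every loaded array stood above every unloaded one. Crot, the peroxisomal octanoyltransferase that prepares shortened acids for export, read 9.01, 8.91, 8.97 and 9.11 in unloaded and 8.77, 8.78, 8.78 and 8.74 in acLDL arrays. It was 1.17-fold lower (-0.23 ± 0.06, limma adjusted p = 0.0142), with no overlap. The thioesterases, which split acyl-CoA, did not pass. The mitochondrial Acot2 differed by -0.21 (95% interval -0.38 to -0.03, limma adjusted p = 0.0901, 0.0210 without unloaded array 3) and Acot9 by -0.15 (-0.36 to 0.07). Peroxisomal Acot8 differed by 0.20 (0.04 to 0.36, limma adjusted p = 0.0655, 0.0441 without unloaded array 3).

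Peroxisomal import genes fell. Abcd2, an importer of very long-chain acyl-CoA, read 7.53, 7.31, 7.38 and 7.39 in unloaded and 6.98, 7.07, 7.11 and 7.05 in acLDL arrays. It was 1.28-fold lower (-0.35 ± 0.06 SE, limma adjusted p = 0.00136), with unloaded array 1 the highest and no overlap. Abcd3, an importer of branched and dicarboxylic acids, read 9.26, 9.07, 9.06 and 9.22 in unloaded and 8.97, 8.93, 8.88 and 8.98 in acLDL arrays. It was 1.16-fold lower (-0.22 ± 0.07, limma adjusted p = 0.0305), also without overlap. The Abcd3 call was lost without unloaded arrays 1 (0.0721) or 4 (0.0841), without acLDL arrays 1 (0.0551), 2 (0.0708) or 3 (0.0824), and after median centring (0.0506). It was also lost without unloaded arrays 1 and 4 together, where the difference was -0.13 (limma adjusted p = 0.187).

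In the peroxisomal spiral, an oxidase and the sterol carrier gene fell. Acox3, the oxidase for branched acids, read 9.73, 9.51, 9.52 and 9.67 in unloaded and 9.18, 9.19, 9.23 and 9.26 in acLDL arrays. It was 1.31-fold lower (-0.39 ± 0.07 SE, limma adjusted p = 0.000738), and the lowest unloaded array stood well above the highest loaded one. Scp2, whose gene encodes both a peroxisomal thiolase and a sterol carrier protein, read 7.35, 7.15, 7.09 and 7.27 in unloaded and 6.88, 6.95, 6.74 and 6.91 in acLDL arrays. It was 1.27-fold lower (-0.35 ± 0.07, limma adjusted p = 0.00382), with no overlap, and the array values do not separate its products. The other listed enzymes of this spiral did not pass. Ehhadh, a dim gene, differed by 0.09 (95% interval -0.09 to 0.28), Hsd17b4, which serves branched acids and bile acid precursors, by 0.14 (0.01 to 0.26), and the thiolase gene Acaa1a by 0.14 (0.01 to 0.27). The arrays of Hsd17b4 and Acaa1a did not overlap between groups. Acaa1a has a close relative, Acaa1b, from which its probes may not fully separate it.

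Pdk4 and Angptl4, textbook PPAR targets outside the spiral, did not pass. Pdk4, the kinase that turns off pyruvate dehydrogenase when fat is burnt, read 4.83, 4.91, 4.98 and 4.94 in unloaded and 5.05, 4.66, 4.88 and 5.08 in acLDL arrays, all dim. It differed by 0.00 (95% interval -0.19 to 0.19, limma adjusted p = 0.987), and the groups overlapped, but a dim level limits what could be seen. Angptl4, a secreted inhibitor of lipoprotein lipase, read 6.92, 6.92, 6.97 and 7.12 in unloaded and 7.09, 7.15, 7.00 and 7.28 in acLDL arrays. Its groups overlapped, and it differed by 0.15 (-0.01 to 0.31, limma adjusted p = 0.175).

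Among the receptors themselves, Pparg fell and its partners Rxra and Rxrb rose. Pparg, the receptor best known in adipocytes and macrophages, read 10.22, 10.16, 10.27 and 10.23 in unloaded and 9.88, 9.96, 9.87 and 9.85 in acLDL arrays, a log2 difference of -0.33 ± 0.06 SE (limma adjusted p = 0.00118) without overlap. Ppard differed by 0.08 (95% interval -0.05 to 0.20), and the dim Ppara by 0.05 (-0.12 to 0.22). Of 14 measured receptors and coregulators limma called 4 higher and 2 lower (42.9%, against 23.3% of all genes and 33.6% of those above the olfactory level). One of the 4, the coactivator gene Ncoa2, is named here for its instability, after its values were seen. It differed by 0.18 (limma adjusted p = 0.0440), and the call was lost in 13 of 21 settings, among them the replicate block (0.0680) and 6 of 8 that left out 1 array (up to 0.109). Rxra read 8.16, 7.93, 7.88 and 7.82 in unloaded and 8.54, 8.53, 8.45 and 8.52 in acLDL arrays, 1.48-fold higher (limma adjusted p = 0.000119), with each loaded array above each unloaded one. Lpin1, a phosphatidate phosphatase that also coactivates PPAR alpha, read 8.96, 8.70, 8.76 and 8.82 in unloaded and 8.16, 8.18, 8.07 and 8.19 in acLDL arrays, 1.58-fold lower (limma adjusted p = 1.88e-05) and without overlap. Pprc1, a PGC1-related coactivator gene, rose by 0.37 ± 0.06 (limma adjusted p = 0.000576). Rxrb, also named after its values were seen, rose by 0.28 ± 0.07 (limma adjusted p = 0.0096) without overlap. Its call was lost in 1 of 21 settings, the one without unloaded arrays 2 and 3 (0.0658).

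Limma called 2 of 13 other PPAR targets higher and 0 lower (15.4%, against 23.3% of all genes and 33.6% above the olfactory level). At an unadjusted p under 0.05, 3 were higher and 0 lower, against 3659 and 3222 of all 19938 genes. Fabp3, a fatty acid-binding protein, rose by 0.47 ± 0.06 and Lpl, the lipoprotein lipase, by 0.33 ± 0.06 (log2, SE; limma adjusted p = 0.000121 and 0.00114). The other 11 were not called, among them the dim Acot1, Cidec, Fgf21, Ucp3 and Aqp7. Of the brighter ones, named after their values were seen, Plin2 differed by 0.004 (95% interval -0.12 to 0.13) and Fabp4 by 0.09 (-0.05 to 0.22). Cd36 differed by 0.06 (-0.05 to 0.18), without overlap of its groups. In the list for uptake and activation of fatty acids, 2 of 13 were called higher and 2 lower (30.8%, against the same 23.3%), Fabp3 being counted in both lists. Acbd5, a peroxisomal membrane protein that binds very long-chain acyl-CoA, read 9.34, 9.07, 9.01 and 9.26 in unloaded and 8.52, 8.68, 8.49 and 8.60 in acLDL arrays. It was 1.51-fold lower (limma adjusted p = 0.000137), and its groups did not overlap. Slc27a4, a fatty acid transport protein, differed by 0.22 (limma adjusted p = 0.0336), and Acsl4, an acyl-CoA synthetase, by -0.20 (0.0366). The calls of Slc27a4 and Acsl4 were lost in 5 and 6 of 8 settings that left out 1 array, with adjusted p of up to 0.109 and 0.0927. In the list for malonyl-CoA and AMPK, which restrain and release Cpt1a, limma called 1 of 10 higher and 0 lower (12.9% and 10.5% of all genes). At an unadjusted p under 0.05, 2 were higher and 1 lower, again against 3659 and 3222 of all 19938 genes. The one that rose was Cpt1c, by 0.20 (limma adjusted p = 0.0285), a call lost in 6 of those 8 settings (adjusted p of up to 0.0796).

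The genes that rose were shorter in the median than those that fell, a difference given without a test. The genomic span, from RefSeq on GRCm38.p6, had a median of 15.5 kb in the 7 that rose and 31.2 kb in the 9 that fell, against 20.9 kb over the genes above the olfactory level. Etfa spans 57.8 kb and Etfb 13.7 kb, Scp2 101 kb and Acads 9.05 kb. Across the 36 members, span and log2 difference had a Spearman correlation of -0.27, and across 11603 genes above the olfactory level -0.12, given as descriptions over genes that share the same arrays. Each array's deviation from the mean of the 8 correlated with span over those genes at 0.23, -0.03, -0.05 and 0.21 in unloaded arrays 1 to 4 and at -0.12, -0.05, -0.20 and -0.01 in acLDL arrays 1 to 4. With a fitted trend of each array with span removed, 8 members rose and 9 fell, and the 16 calls remained. Etfa then differed by -0.61 (limma adjusted p = 0.000309) and Acads by 0.54 (7.99e-05). The Spearman correlation with span was still -0.21 across the members and -0.07 across the genes above the olfactory level. The removal was therefore partial, and the part of span in the calls was not tested.

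**Figure D4:**
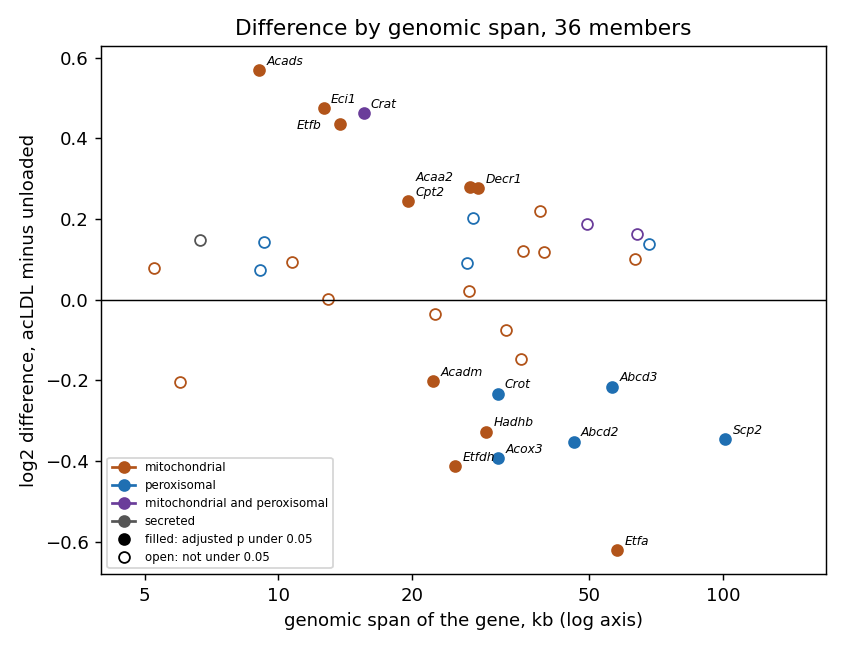
Log2 difference, acLDL minus unloaded, of each of 36 members against the genomic span of its gene (log axis). Filled points passed an adjusted p of 0.05 in limma. Risers had a median span of 15.5 kb and fallers of 31.2 kb.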

How the data were processed

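Total RNA of 4 unloaded and 4 acLDL cultures was labelled for Affymetrix arrays with biotin, per the labels' protocols. The authors deposited log2 expression values from RMA, a method that subtracts background, matches the distributions of arrays and summarises probes, per the submitters' processing notes, with no version given in the sources used here. Such values understate differences of dim genes and cannot show a shift common to the whole array. Of 35557 deposited probe sets, 21789 carried 1 gene symbol in the platform annotation, 1621 several, and 12147 were not listed. Entrez identifiers matched 21698 of the 21789 to RefSeq (GRCm38.p6), with 0 symbols changed. The brightest probe set stood for a gene, which left 19938 genes.

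Differences are acLDL minus unloaded, tested with limma 3.58.1 in R 4.3.3 (two-sided, Benjamini-Hochberg over 19938 genes, threshold 0.05), without a block. The step was run on simulated arrays with planted changes and independent noise for each gene. That setting lacks the spread that genes share within the real arrays, so it does not show how the step handles such spread. The labels tie no equal replicate numbers to a shared source. Deviations of same-numbered arrays correlated at 0.11, -0.16, 0.30 and 0.14, and since 1 pair lay below 0.1 the numbers were not taken as pairs, although these values do not exclude pairing. Members, lists and tests were chosen with earlier results of these data known. All members were described, and of each pathway list up to 4 genes past the threshold and the PPAR genes, with Ncoa2, Rxrb, Plin2, Fabp4 and Cd36 added. Some others are named only as dim. Alternatives were other scalings, filters, priors and left-out arrays. The number of arrays limits precision (median SE 0.074 on the log2 scale). Proteins were not analysed here. Figures used matplotlib 3.10.9.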

Additional observations from a re-analysis of the deposited data

Results flagged for a closer look

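Of 72 groups of 4 arrays (36 members in each condition), 3 held an array far from the other 3, and chance alone flags about 1 group in 20. Unloaded array 3 read 7.87 for Acad9, below the other unloaded arrays. In acLDL array 4, Hadha read 9.89, above the other loaded arrays, and Eci1 read 7.54, below them. Eci1 rose in each of the 21 alternative settings, while Acad9 and Hadha passed in 0 of 21.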

How the results depend on the processing

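Of the 16 members that passed, 11 passed in the same direction in each of 21 alternative settings (Acads, Eci1, Decr1, Etfb and Crat higher, Etfa, Etfdh, Hadhb, Abcd2, Acox3 and Scp2 lower). The other 5 (Cpt2, Acadm, Acaa2, Abcd3 and Crot) missed the threshold in 1 to 7 settings, 8 members that had not passed did so in 1 to 9, and 0 calls changed direction. Leaving out 1 array gave 6 to 9 members higher, 7 to 10 lower, 0 to 1 peroxisomal members higher, 11 to 18 pathway list genes past the threshold (17 with all arrays, 11 without acLDL array 1) and 3618 to 4590 of all genes. Without unloaded arrays 1 and 4, 11 members were higher and 3 peroxisomal members were lower. In that setting Crot had a limma adjusted p of 0.0722 and Abcd3 of 0.187, and the peroxisomal median was -0.0060. The mitochondrial median ran from 0.05 to 0.10 with 1 array left out and from 0.02 to 0.11 in the other settings. Without unloaded arrays 2 and 3 the peroxisomal median was -0.15, Acaa2 had an adjusted p of 0.0579, and with dim genes left out (Ehhadh among them) the peroxisomal median was -0.22. Peroxisomal members higher numbered 1 with dim genes left out and with a trended robust prior, and 2 without moderation. Median centring left 10 pathway list genes. The cause was not tested. The replicate block gave 8 members higher (Hadh added, adjusted p = 0.0387) and 9 lower, 16 pathway list genes (Ncoa2 lost, 0.0680) and 4860 genes in all, and whether the numbers pair the arrays is not settled. The change of Etfb minus Etfa ran from 0.99 to 1.15, and of Hadha minus Hadhb from 0.41 to 0.49, with 1 array left out. Signal near background limits Pdk4, Ehhadh, Ppara and the other dim genes of the pathway lists, such as Rxrg and Ppargc1a.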

Other observations

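Of 16 other peroxisomal lipid enzymes limma called 2 higher and 1 lower (18.8%, against 23.3% of all genes and 33.6% above the olfactory level). Acox2, Acaa1b, Acot4, Acot6 and Baat of this list were dim. The one that fell was Hacl1, the lyase that shortens branched acids by 1 carbon, which read 7.54, 7.48, 7.39 and 7.75 in unloaded arrays 1 to 4 and 6.92, 7.02, 6.92 and 6.92 in acLDL arrays 1 to 4. It was 1.51-fold lower (log2 difference -0.60 ± 0.08 SE, limma adjusted p = 8.78e-05), and its groups did not overlap. Cat, the catalase that removes the peroxide made by peroxisomal oxidases, rose by 0.29 ± 0.06 (limma adjusted p = 0.00398). Pecr, a trans-2-enoyl-CoA reductase, differed by 0.30 (0.0332), but its groups overlapped and the call was lost in 5 of 8 settings that left out 1 array (adjusted p of up to 0.105). Of 13 peroxisome assembly genes limma called 2 higher and 0 lower (15.4% higher, against 12.9% of all genes). At an unadjusted p under 0.05 also 2 were higher and 0 lower, against 3659 and 3222 of all 19938 genes. The 2 were Pex10, by 0.23 (limma adjusted p = 0.0151, 0.0563 without acLDL array 2), and Pex6, by 0.21 (0.0345), a call lost in 5 of those 8 settings (adjusted p of up to 0.106).

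Of 9 measured genes for propionyl-CoA, the end product of odd-chain acids, and for ketone bodies, limma called 0 higher and 0 lower. Among all genes 12.9% were called higher and 10.5% lower, and Mmaa, Bdh1 and Bdh2 of the list were dim. At an unadjusted p under 0.05, 1 of the 9 was higher and 1 lower, against 3659 and 3222 of all 19938 genes. Each gene of the lists counted once, 12 of 85 rose and 5 fell (20.0% called). Among all genes 23.3% were called, and among those above the olfactory level 33.6%.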
